A study of Mus musculus with 6 samples.

Results

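Among the genes counted in neural stem cells (NSCs) lacking miR-151, 52 encode the parts of the Wnt pathway that carry the signal from ligand to nucleus. They are the Wnt ligands, the Frizzled receptors, the Sfrp and Dkk antagonists with *Wif1* and *Notum*, the co-receptors *Lrp5* and *Lrp6*, β-catenin (*Ctnnb1*) with *Apc* and *Axin1*, the TCF/LEF factors, and the feedback genes *Axin2*, *Nkd1*, *Rnf43*, *Znrf3* and *Lgr5*. They were picked out by gene symbol from 32493 counted genes, with earlier results of these data known. A further ligand that the same symbols take in, *Wnt3a*, was not analysed here. Of the 52 genes, 36 had enough counts to be tested and 16 did not.

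RNA-seq was run on NSCs dissected from the brain of E14.5 mouse embryos (C57BL/6J) and cultured for 3 generations. The cko NSCs came from embryos with the driver Emx1-IRES-Cre and floxed miR-151 alleles, and the ctrl NSCs, labelled wt, from littermates that, per the study's methods, had the floxed alleles without Cre. *Emx1* is active in the dorsal telencephalon, so the floxed alleles stay intact in cells that never expressed this Cre. Of the 3 ctrl and 3 cko columns deposited, that of ctrl replicate 2 was the rounded mean of the other ctrl columns in all 32493 genes. It was counted in no n, which left ctrl libraries 1 and 3 (n = 2) and cko libraries 1, 2 and 3 (n = 3). The labels do not say whether the libraries of a genotype came from separate cultures or embryos, so p-values measure only the spread between these libraries.

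Wnt proteins are lipid-modified secreted ligands that bind a Frizzled receptor together with Lrp5 or Lrp6. In the absence of ligand, a complex built on Axin and Apc marks β-catenin for degradation, and when ligand binds, β-catenin accumulates and acts in the nucleus with TCF/LEF factors. Several of the genes it activates, among them *Axin2*, *Nkd1*, *Rnf43*, *Znrf3* and *Notum*, limit the signal in turn. In the embryonic forebrain, Wnt signals from the dorsal midline pattern the cortex, and β-catenin influences whether neural progenitors go on dividing.

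The promoters of the 4 genes below are shown because *Nkd1* and *Rnf43*, 2 feedback genes, were higher in cko NSCs, and *Fzd1*, a receptor, and *Tcf7l2*, a TCF/LEF factor, were lower. Each line holds the 250 bases before a transcription start in RefSeq (GRCm38.p6), 5′ to 3′ on the strand of the gene, and capitals mark a TCF/LEF motif.
Nkd1, chr8:88527383-88527632, plus strand: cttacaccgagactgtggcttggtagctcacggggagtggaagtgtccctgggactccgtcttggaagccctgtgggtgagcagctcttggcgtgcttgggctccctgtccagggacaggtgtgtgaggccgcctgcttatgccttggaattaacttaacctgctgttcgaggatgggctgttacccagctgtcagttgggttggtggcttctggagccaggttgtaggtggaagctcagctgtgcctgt
Rnf43, first start, chr11:87662837-87663086, plus strand: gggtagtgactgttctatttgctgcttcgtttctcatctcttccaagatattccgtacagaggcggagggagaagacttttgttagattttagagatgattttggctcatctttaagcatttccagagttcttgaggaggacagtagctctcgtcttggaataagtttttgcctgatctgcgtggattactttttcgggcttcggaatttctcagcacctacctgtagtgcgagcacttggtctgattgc
Rnf43, other start, chr11:87699647-87699896, plus strand: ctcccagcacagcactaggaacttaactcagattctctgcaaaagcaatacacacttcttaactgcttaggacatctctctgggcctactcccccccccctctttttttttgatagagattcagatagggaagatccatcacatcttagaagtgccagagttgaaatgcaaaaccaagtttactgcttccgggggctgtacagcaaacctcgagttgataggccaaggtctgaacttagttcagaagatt
Fzd1, chr5:4758217-4758466, minus strand: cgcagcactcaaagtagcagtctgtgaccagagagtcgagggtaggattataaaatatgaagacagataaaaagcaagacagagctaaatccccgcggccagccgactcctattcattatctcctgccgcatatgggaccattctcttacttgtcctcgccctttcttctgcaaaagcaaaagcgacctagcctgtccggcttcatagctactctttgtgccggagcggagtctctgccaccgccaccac
Tcf7l2, first start, chr19:55741560-55741809, plus strand: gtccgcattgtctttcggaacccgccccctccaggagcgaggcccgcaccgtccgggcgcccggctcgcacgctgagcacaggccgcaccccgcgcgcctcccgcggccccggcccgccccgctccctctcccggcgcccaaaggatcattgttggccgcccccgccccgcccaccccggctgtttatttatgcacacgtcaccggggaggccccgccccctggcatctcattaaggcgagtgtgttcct
Tcf7l2, internal start, chr19:55895071-55895320, plus strand: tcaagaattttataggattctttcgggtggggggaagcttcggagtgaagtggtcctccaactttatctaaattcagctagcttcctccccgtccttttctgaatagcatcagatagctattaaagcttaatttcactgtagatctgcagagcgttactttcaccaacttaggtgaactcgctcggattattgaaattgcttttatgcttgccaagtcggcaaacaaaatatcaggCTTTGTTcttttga
The motif searched, on both strands, was CTTTG followed by 2 letters that could each be A or T. Of the 6 windows, the one before the internal start of *Tcf7l2* held a match, CTTTGTT, 14 bases before that start, and the other 5 held none. *Ctnnb1*, also higher in cko NSCs, and *Fzd4* and *Fzd5*, also lower, had windows that are not shown and held no match. Over the 7 higher or lower Wnt genes with windows, 1 of 10 windows (10%) held a match. The *Nkd1* window lies inside the gene as annotated in GENCODE M21 (chr8:88521354-88594884). Both *Rnf43* windows also lie inside their annotated gene (chr11:87662722-87735539). The bases before the annotated 5′ end of these genes were thus not searched. Over the Wnt genes with an entry, 6 of 43 windows (14.0%) held a motif, against 14.8% of 32851 windows of all genes. The windows of the Wnt genes had a median of 20 CpG dinucleotides and a GC content of 66.4%, against 6 and 52.4% over all windows. A match describes letters in a window and does not show binding.

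The libraries held 17883796 to 23335736 counts, so that 3 counts, the lowest level taken as detected, stood for 0.129 to 0.168 CPM, the unit of counts scaled to library size and by TMM factors, a limit that covers counting error only. All 10 NSC markers passed the filter on low counts, and their summed level was 7146 to 8151 CPM in ctrl and 8349 to 9067 CPM in cko libraries. Among them, *Hes5*, *Nes* and *Prom1* were higher in cko NSCs and *Slc1a3* was lower. Of 10 cell cycle genes, 9 were higher in cko NSCs and none lower, and their summed level was 922 to 1072 CPM in ctrl and 1899 to 2534 CPM in cko libraries. Of 8 astrocyte markers, 5 were lower and none higher, with a sum of 2093 to 3153 CPM in ctrl and 873 to 1581 CPM in cko libraries. Of 10 oligodendrocyte lineage markers, 5 were lower, among them the myelin gene *Mbp*, and 2 were higher, *Olig1* and *Olig2*, while their sums overlapped (3217 to 3840 and 3512 to 3765 CPM). Of the 7 tested neuron markers, 2 were higher (*Elavl4* and *Syt1*) and 1 lower (*Dcx*), and *Otx2*, the 1 tested marker of choroid plexus and cortical hem, was lower (log2 fold change -2.13). In these lists, genes named or counted as higher or lower had an edgeR adjusted p under 0.05. By that rule, 7.86% of all tested genes were higher and 8.57% lower. No microglia marker passed the filter. Of the endothelial markers, 3 were tested and none passed the threshold, with a summed level of 5.55 to 7.31 CPM in ctrl and 5.96 to 8.23 CPM in cko libraries, while *Cdh5* was at 0 in every library. The part of these lists in the Wnt results below was not tested. In such bulk libraries, fewer cells of a type and less RNA per cell cannot be told apart. The targeted miRNA was not analysed here, so no value of it checks the labels.

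Of the 36 tested Wnt genes, 3 were higher in cko NSCs (*Nkd1*, *Rnf43* and *Ctnnb1*) and 7 were lower (*Tcf7l2*, *Wnt7b*, *Fzd1*, *Fzd2*, *Fzd4*, *Fzd5* and *Fzd8*) when genes with an edgeR adjusted p under 0.05 were counted. These are 8.33% and 19.4% of the 36 genes, against 7.86% and 8.57% of all 16710 tested genes by the same rule. The share of higher genes was thus close to that over all genes. The 3 higher genes were 2 inhibitors of the pathway that are also its targets and the gene of its central transducer. Of the 7 lower genes, 5 were receptors. At the threshold of the study, a log2 fold change beyond 0.9 with an unadjusted p under 0.01, 2 Wnt genes were higher (*Nkd1* and *Rnf43*) against 2.39% of all tested genes, and 2 were lower (*Tcf7l2* and *Fzd4*) against 4.17%. All cko libraries stood above both ctrl libraries in 7 Wnt genes (25.4% of all tested genes) and below both in 14 (24.3%). The median log2 fold change, cko over ctrl, was -0.21 over the 36 Wnt genes and -0.0026 over all tested genes. The counts depended on the libraries. Without cko library 2, 2 Wnt genes were higher and 4 lower, and without cko library 3, 1 was higher and 3 lower. The matching shares of all tested genes were not taken for these fits. Fits with 1 ctrl library hold no spread between ctrl libraries, so their counts are not given.

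**Figure D1:**
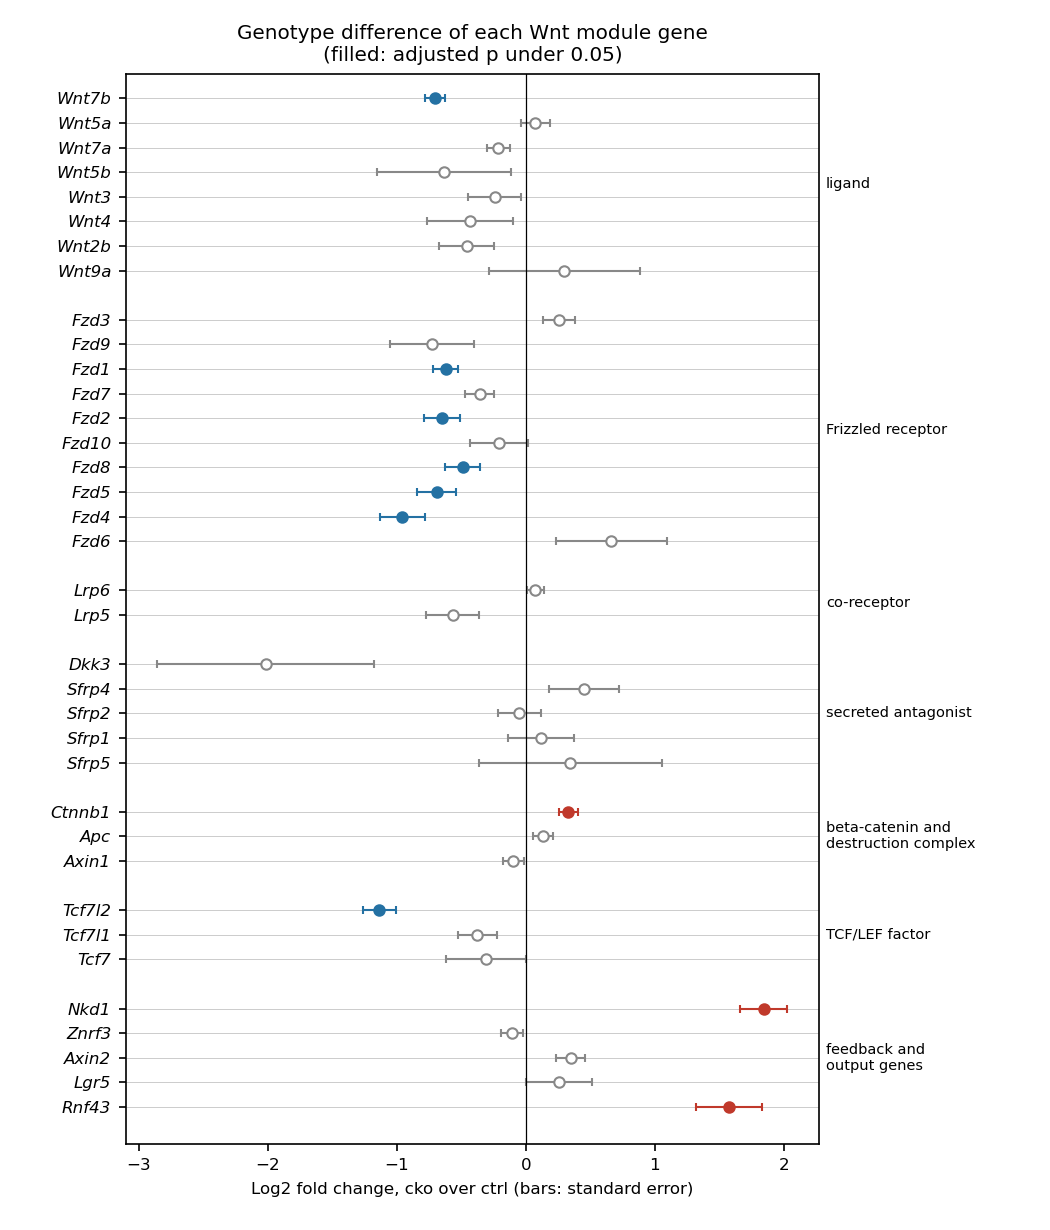
Log2 fold change of each tested Wnt gene, cko over ctrl (x axis, edgeR fit of 2 ctrl and 3 cko libraries), with bars for its standard error, ordered by role and then by level. Filled points have an adjusted p under 0.05, red for the 3 higher and blue for the 7 lower genes; *Nkd1* lies farthest to the right at 1.84, and *Dkk3*, which is not filled, farthest to the left at -2.02 with the longest bar.

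Among the ligands, *Wnt7b* fell in cko NSCs and the other 7 tested ligands did not pass the threshold. *Wnt7b*, a ligand of β-catenin signalling in the developing brain and its vessels, is annotated at chr15:85535437-85582473, minus strand, in GRCm38. It had 171 and 168 CPM in ctrl libraries 1 and 3 and 110.0, 106 and 97.7 CPM in cko libraries 1, 2 and 3. The ctrl libraries lay close together and every cko library was well below them. The log2 fold change was -0.70 (SE 0.077, edgeR adjusted p = 0.00248), 1.63-fold lower in cko, and it stayed past the threshold in all 15 alternative settings. These settings include fits with the averaged ctrl column and with 1 ctrl library alone, which shrink or drop the spread between ctrl libraries. The exons of *Wnt7b* share 324 bp with the antisense gene *AU022754*, which had at most 161 counts. Whether reads were counted by strand is not given in the sources used here. *Wnt7a*, its closest relative, had 61.4 and 69.7 CPM in ctrl and 58.8, 56.8 and 53.9 CPM in cko libraries. All cko values were below both ctrl values, yet the log2 fold change of -0.21 (SE 0.088) did not pass (edgeR adjusted p = 0.139).

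Scaled by length, *Wnt7b* and *Wnt7a* were the most abundant ligand transcripts. Averaged over the 5 libraries, *Wnt7b* stood at 26.7 ± 7.38 CPM per kb of exon (SD, n = 5) and *Wnt7a* at 19.0 ± 1.90, so that they made up 44.5% and 31.6% of the summed ligand level per kb. The share of *Wnt7b* was 49.8% and 48.5% in the ctrl and 40.9%, 41.1% and 39.0% in the cko libraries, lower without overlap. That of *Wnt7a* was 27.5% and 31.0% against 33.7%, 34.1% and 33.2%, higher without overlap. *Wnt5a*, mainly a ligand of β-catenin-independent signalling, took 14.1% of the level per kb averaged over the libraries. Its levels, 56.6 and 71.9 CPM in ctrl and 65.1, 66.2 and 71.1 CPM in cko libraries, overlapped (log2 fold change 0.07, SE 0.11, edgeR adjusted p = 0.701). *Wnt5b* had 14.7 CPM in ctrl library 1 and 3.25 in ctrl library 3, with all cko values, 4.93 to 6.99 CPM, in between. The other tested ligands, *Wnt2b*, *Wnt3*, *Wnt4* and *Wnt9a*, each took under 3% of the level per kb and had adjusted p values of 0.183 to 0.767 in edgeR. Of these, *Wnt2b* had 3.54 and 3.95 CPM in ctrl and 2.69, 2.66 and 2.80 CPM in cko libraries, so that the groups did not overlap. *Wnt4* had 2.62 and 5.55 CPM in ctrl and 3.30, 2.83 and 2.90 CPM in cko libraries, where the cko values again fell between the ctrl values. The summed level of all ligands was 316 and 328 CPM in ctrl and 252, 243 and 239 CPM in cko libraries. Most of this difference lay in *Wnt7b*.

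**Figure D2:**
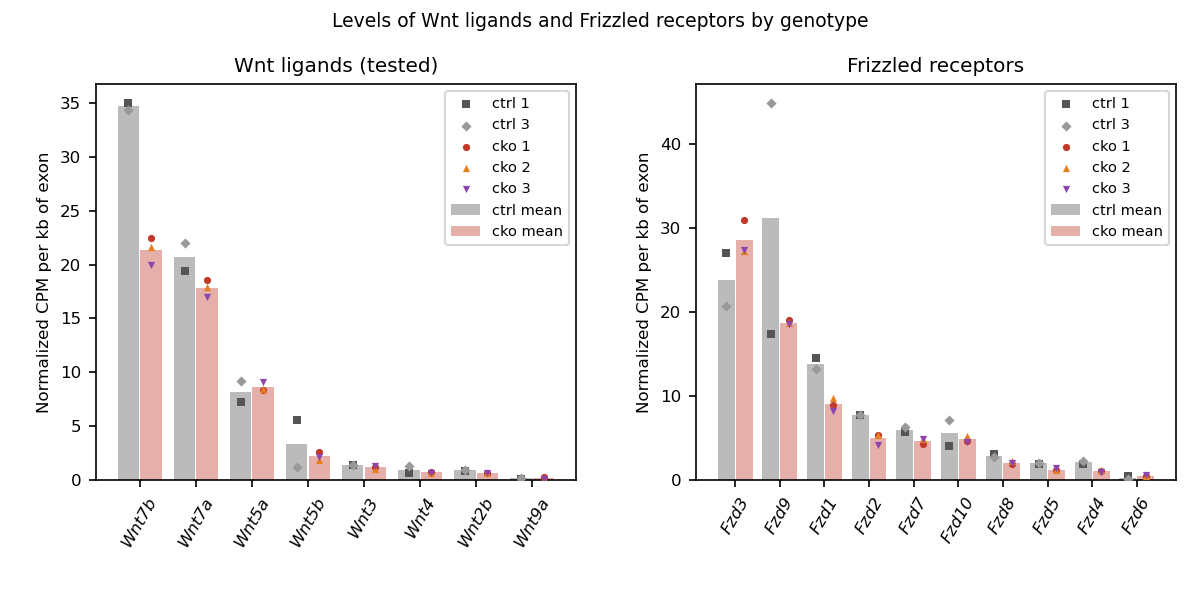
TMM-normalized CPM per kb of annotated exon (y axes) of the tested ligands (left) and the Frizzled receptors (right), with bars for the mean of each genotype and points for the libraries. *Wnt7b* is the highest ligand in both genotypes and lower in the cko libraries, and the *Fzd9* bar for ctrl averages 2 libraries that lie far apart.

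All 10 Frizzled receptors were tested. In cko NSCs, 5 were lower (50%, against 8.57% of all tested genes) and none was higher. A negative log2 fold change was found in 8, with a median of -0.56 over the 10. *Fzd1* (chr5:4753839-4758035, minus strand) had 60.9 and 55.3 CPM in ctrl and 37.7, 41.1 and 34.4 CPM in cko libraries. Each cko value was below each ctrl value (log2 fold change -0.62, SE 0.10, edgeR adjusted p = 0.00819), and the call held in all 15 alternative settings. *Fzd4*, which is also the receptor for Norrin, had 13.0 and 15.0 CPM in ctrl and 7.05, 8.32 and 6.20 CPM in cko libraries. This was the largest decrease among the receptors that passed, a log2 fold change of -0.96 (SE 0.17, edgeR adjusted p = 0.0120), and the call was lost without cko library 3 (adjusted p = 0.0634).

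*Fzd2* had 28.4 CPM in both ctrl libraries and 19.8, 19.4 and 15.1 CPM in the cko libraries. All cko libraries were lower (log2 fold change -0.65, SE 0.14, edgeR adjusted p = 0.0207), and the call was lost without cko library 2 or 3 (adjusted p = 0.0704 and 0.0677). *Fzd5*, a close relative of *Fzd8*, had 13.2 and 14.4 CPM in ctrl and 8.17, 7.84 and 9.51 CPM in cko libraries. The groups did not overlap (log2 fold change -0.69, SE 0.15, edgeR adjusted p = 0.0223), and leaving out any 1 cko library ended the call (0.0637 to 0.104). *Fzd8* had 18.2 and 16.2 CPM in ctrl and 11.6, 13.3 and 11.8 CPM in cko libraries. Here too the cko values were all lower (log2 fold change -0.49, SE 0.13, edgeR adjusted p = 0.0448), but the call was lost without ctrl library 1 (0.0856) and without any 1 cko library (0.101 to 0.158). *Fzd7*, named after its values were seen, was the sixth receptor with all cko libraries below both ctrl libraries, an order found in 24.3% of all tested genes. It had 26.0 and 28.3 CPM in ctrl and 19.2, 22.1 and 22.2 CPM in cko libraries. It did not pass (log2 fold change -0.36, SE 0.11, edgeR adjusted p = 0.0717).

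The 2 most abundant receptors per kb did not follow these 5. *Fzd3*, a core planar cell polarity receptor that guides axons, stood at 26.6 ± 3.72 CPM per kb (SD, n = 5), or 31.9% of the summed Frizzled level per kb. It had 346 and 265 CPM in ctrl and 397, 349 and 349.8 CPM in cko libraries. Every cko library was above both ctrl libraries, the opposite order to the receptors that fell, without passing the test (log2 fold change 0.26, SE 0.13, edgeR adjusted p = 0.203). *Fzd9* stood at 23.7 ± 11.9 CPM per kb (SD, n = 5), or 28.4%, and its cko libraries were tightly grouped at 43.6, 42.7 and 42.5 CPM. The ctrl libraries, at 39.9 and 103 CPM, lay on either side of them, so that no direction can be read (log2 fold change -0.73, SE 0.33, edgeR adjusted p = 0.169). *Fzd10*, with 13.2 and 23.2 CPM in ctrl and 15.2, 16.9 and 14.9 CPM in cko libraries, likewise had its cko values between the ctrl values. *Fzd6*, the least abundant receptor per kb, had 2.10 and 0.747 CPM in ctrl and 2.01, 2.19 and 2.67 CPM in cko libraries. Both overlapped between genotypes, with adjusted p values of 0.565 for *Fzd10* and 0.325 for *Fzd6* in edgeR. Summed over all Frizzled genes, the libraries overlapped, at 561 and 549 CPM in ctrl and 561, 523 and 509 CPM in cko. Without *Fzd3*, the one with the most CPM, the sums were 215 and 285 CPM in ctrl and 164, 174 and 159 CPM in cko libraries. This split was not planned, and *Fzd3* was the only receptor with all cko libraries above ctrl, so its removal favours lower cko sums. The sum of ctrl library 3 also includes the 103 CPM of *Fzd9*.

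Neither co-receptor passed the test. *Lrp6*, the co-receptor with the higher level per kb (9.76 ± 0.280 CPM per kb, SD, n = 5), was nearly constant, with 129.5 CPM in both ctrl libraries and 136, 135 and 138 CPM in the cko libraries (log2 fold change 0.07, SE 0.067, edgeR adjusted p = 0.494). *Lrp5*, at 5.14 ± 1.65 CPM per kb, had 46.9 and 77.7 CPM in ctrl and 36.1, 43.0 and 46.7 CPM in cko libraries. All cko values were below both ctrl values, but the ctrl libraries were further apart from each other than ctrl library 1 was from any cko library (log2 fold change -0.57, SE 0.21, edgeR adjusted p = 0.104).

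No secreted antagonist passed the test, and in none of the 5 tested did the groups separate. *Dkk3*, a member of the Dickkopf family whose effect on Wnt signalling varies with context, had 102 CPM in ctrl library 1 and 6.56 CPM in ctrl library 3, a 15.6-fold difference within 1 genotype. The cko libraries lay between, at 17.2, 11.7 and 11.7 CPM. The fitted log2 fold change was -2.02 (SE 0.84, edgeR adjusted p = 0.144), -2.92 against ctrl library 1 alone and 1.03 against ctrl library 3 alone. *Sfrp2*, a secreted Frizzled-related protein, stood at 8.45 ± 1.19 CPM per kb (SD, n = 5) and held the largest share of the antagonist level per kb in every library but ctrl library 1 (62.3% in ctrl library 3 and 39.3% to 44.0% in the cko libraries). With 15.1 and 22.1 CPM in ctrl and 18.9, 17.5 and 17.4 CPM in cko libraries, its groups overlapped (log2 fold change -0.05, SE 0.17, edgeR adjusted p = 0.872). *Sfrp4* had 22.7 and 10.8 CPM in ctrl and 24.2, 23.1 and 21.8 CPM in cko libraries, so that ctrl library 1 stood with the cko libraries and ctrl library 3 apart from them. *Sfrp1*, *Sfrp4* and *Sfrp5* had adjusted p values of 0.293 to 0.799 in edgeR. *Dkk1*, a secreted inhibitor that binds Lrp5 and Lrp6, was at 0 counts in every library, and *Dkk2*, *Dkk4*, *Wif1* and *Notum* had at most 8 counts in any library.

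Within the cytoplasm, *Ctnnb1* rose slightly and the destruction complex genes did not pass. *Ctnnb1* (chr9:120929216-120960507, plus strand) had 679 and 674 CPM in ctrl and 859, 872 and 819.7 CPM in cko libraries. The values of each genotype lay close together and apart from the other (log2 fold change 0.33, SE 0.075, edgeR adjusted p = 0.0261), a 1.26-fold difference. Leaving out any 1 cko library ended the call (0.0713 to 0.161), with the log2 fold change between 0.30 and 0.35. Of its exons, 759 bp overlap those of *Ulk4* on the opposite strand, which had at most 159 counts. *Apc*, the scaffold of the destruction complex, had 589 and 572 CPM in ctrl and 664, 606 and 639 CPM in cko libraries, all above ctrl but not past the threshold (log2 fold change 0.13, SE 0.077, edgeR adjusted p = 0.278). *Axin1*, the other scaffold, overlapped between genotypes (adjusted p = 0.435). These values are transcript levels and do not measure the amount or location of β-catenin protein.

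*Tcf7l2*, the nuclear partner of β-catenin also called TCF4, had the largest decrease of the Wnt genes that passed. It is annotated at chr19:55741820-55933654, plus strand. The levels were 68.4 and 53.7 CPM in ctrl and 30.7, 25.6 and 27.2 CPM in cko libraries. Even the lower ctrl library was clearly above the highest cko library (log2 fold change -1.14, SE 0.13, edgeR adjusted p = 0.00259), a 2.20-fold decrease that passed in all 15 alternative settings. Its promoters are among those shown above, and gene counts do not say which start was used. *Tcf7l1*, which mostly acts as a repressor of Wnt targets, stood at 9.78 ± 2.05 CPM per kb of exon (SD, n = 5), or 63.3% of the TCF/LEF level against 30.3% for *Tcf7l2*. With the longest transcript as length, these shares were 51.0% and 44.7%, so the order of the 2 genes depends on the length used. It had 52.7 and 36.3 CPM in ctrl and 33.8, 34.3 and 34.8 CPM in cko libraries, where ctrl library 3 lay near the cko values (log2 fold change -0.38, SE 0.15, edgeR adjusted p = 0.129). The share of *Tcf7l2* in the summed TCF/LEF level per kb was 35.3% and 36.6% in ctrl and 27.1%, 23.4% and 23.7% in cko libraries, and that of *Tcf7l1* was 60.8% and 55.3% against 66.8%, 70.2% and 67.9%. *Tcf7*, with 2.18 and 3.47 CPM in ctrl and 2.01, 1.97 and 2.80 CPM in cko libraries, overlapped (log2 fold change -0.31, SE 0.31, edgeR adjusted p = 0.534). *Lef1*, with at most 9 counts in a library, was not tested. *Tcf7l2* is also expressed in cells of the oligodendrocyte lineage, and in these libraries *Mbp*, *Myrf*, *Sox10* and *Cnp* of that lineage were lower in cko NSCs as well, with log2 fold changes of -4.16 to -0.78. *Olig1* and *Olig2* of the same lineage were higher (0.63 and 0.38), and the summed level of the lineage's markers overlapped between genotypes. Their part in the *Tcf7l2* result was not tested.

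Of the 5 feedback and output genes, *Nkd1* and *Rnf43* rose in cko NSCs (40%, against 7.86% of all tested genes) and the other 3 did not pass the threshold. *Nkd1*, an antagonist that binds Dishevelled and is induced by Wnt signalling, is annotated at chr8:88521354-88594884, plus strand. It had 31.9 and 46.8 CPM in ctrl and 120.2, 154 and 149 CPM in cko libraries. The lowest cko library was more than 2-fold above the highest ctrl library (log2 fold change 1.84, SE 0.18, edgeR adjusted p = 0.00192). This 3.59-fold increase was the largest of the Wnt genes that passed, and it passed in all 15 alternative settings, with log2 fold changes of 1.58 to 2.15. *Rnf43*, a membrane ubiquitin ligase that removes Frizzled from the cell surface, is annotated at chr11:87662722-87735539, plus strand. It had 2.97 and 5.28 CPM in ctrl and 13.3, 11.0 and 12.4 CPM in cko libraries. Again the groups were well apart (log2 fold change 1.57, SE 0.26, edgeR adjusted p = 0.00859). The increase was 2.98-fold, and the adjusted p was 0.0503 without cko library 3, the 1 setting of 15 in which it did not pass.

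The remaining feedback genes did not pass. *Axin2*, the most widely used readout of β-catenin signalling, had 27.4 and 33.3 CPM in ctrl and 36.1, 40.6 and 39.1 CPM in cko libraries. Every cko library was above both ctrl libraries, by a margin smaller than the gap between the ctrl libraries (log2 fold change 0.35, SE 0.11, edgeR adjusted p = 0.0790). Over the 15 alternative settings the adjusted p was 0.00922 to 0.258 and the direction stayed positive. *Znrf3*, the closest relative of *Rnf43*, had 41.3 and 41.9 CPM in ctrl and 36.9, 38.5 and 40.5 CPM in cko libraries. Unlike *Rnf43*, it was slightly below ctrl in every cko library (log2 fold change -0.11, SE 0.084, edgeR adjusted p = 0.419). *Lgr5*, a receptor for R-spondins, had 7.21 and 13.0 CPM in ctrl and 10.4, 11.7 and 13.8 CPM in cko libraries, and overlapped (log2 fold change 0.25, SE 0.26, edgeR adjusted p = 0.539). Summed over the 5 feedback genes, the level was 111 and 140.4 CPM in ctrl and 217, 255 and 255 CPM in cko libraries. Most of that difference was *Nkd1*, whose share of the level per kb in this group was 38.1% and 43.3% in ctrl and 64.9%, 69.1% and 67.9% in cko libraries.

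**Figure D3:**
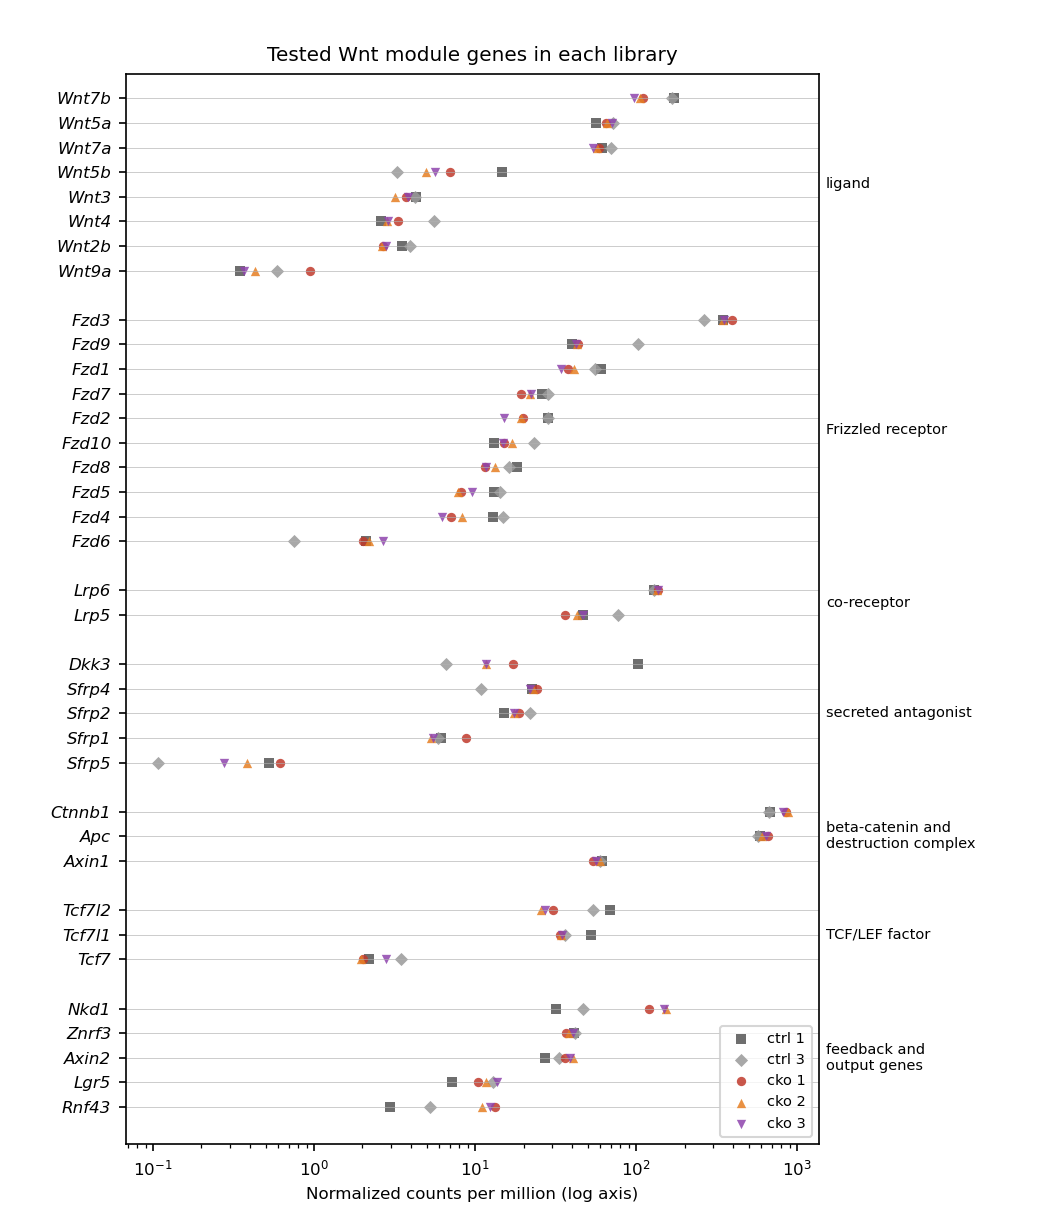
TMM-normalized CPM (log x axis) of the 36 tested Wnt genes in each of the 5 libraries, ordered by role and then by level, with squares and diamonds for ctrl libraries 1 and 3 and other symbols for cko libraries 1, 2 and 3. The cko symbols of *Nkd1* and *Rnf43* lie to the right of both ctrl symbols and those of *Wnt7b*, *Tcf7l2*, *Fzd1*, *Fzd2*, *Fzd4*, *Fzd5* and *Fzd8* to the left, while in *Dkk3* and *Wnt5b* they lie between the ctrl libraries.

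The ctrl libraries differed by more than 2-fold from each other in 7 of the 36 Wnt genes (*Dkk3*, *Wnt5b*, *Wnt4*, *Fzd6*, *Fzd9*, *Sfrp4* and *Sfrp5*), against 9.24% of all tested genes. Both ctrl libraries were also set against the same 3 cko libraries, each alone. For *Nkd1* the log2 fold change was 2.15 against ctrl library 1 and 1.58 against ctrl library 3, for *Tcf7l2* it was -1.30 and -0.96, and for *Wnt7b* it was -0.71 and -0.70.

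**Figure D4:**
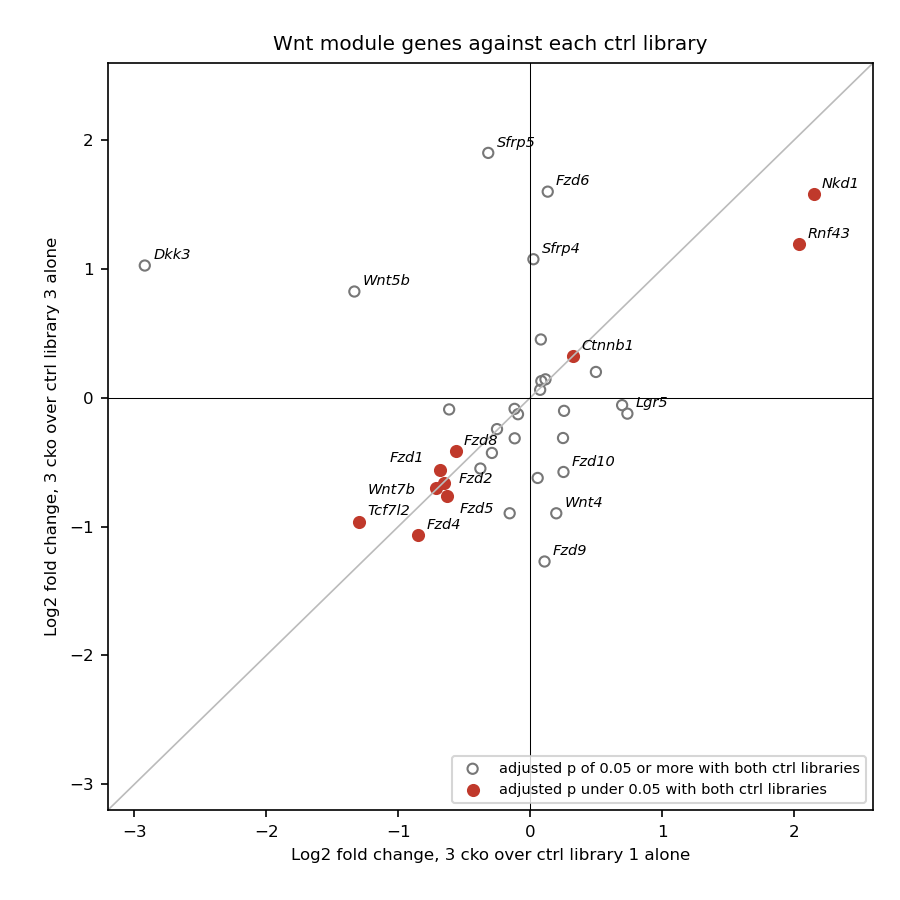
Log2 fold change of the 3 cko libraries over ctrl library 1 alone (x axis) and over ctrl library 3 alone (y axis) for the 36 tested Wnt genes, with the line of equal values in grey. Both axes share the cko libraries; the 10 filled genes are those past the threshold with both ctrl libraries, and *Dkk3* (-2.92 and 1.03) and *Wnt5b* lie at the upper left, where the signs disagree.

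The 16 genes that were not tested had at most 9 counts in any library. They were the ligands *Wnt1*, *Wnt2*, *Wnt6*, *Wnt8a*, *Wnt8b*, *Wnt9b*, *Wnt10a*, *Wnt10b*, *Wnt11* and *Wnt16*, the antagonists *Dkk1*, *Dkk2*, *Dkk4*, *Wif1* and *Notum*, and *Lef1*. *Wnt1* and *Dkk1* were at 0 in every library. At such counts a decrease or a small change would not be visible. The tested genes were thus 8 of 18 ligands, all 10 Frizzled receptors, both co-receptors, 5 of 10 antagonists, all 3 genes of the β-catenin group, 3 of 4 TCF/LEF factors and all 5 feedback genes.

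A list of other pathway genes, which holds agonists, further receptors and antagonists, cytoplasmic and nuclear components, planar polarity genes and targets, had 62 tested genes, of which 5 were higher and 6 lower in cko NSCs by the same rule. These are 8.06% and 9.68% of the list, close to the 7.86% and 8.57% of all tested genes. The median log2 fold change was 0.10. Here too the counts depended on the libraries. Leaving out cko library 1, 2 or 3 gave 2, 1 and 2 higher genes, and 2 were lower without cko library 2 and 3 without cko library 3. The 5 higher genes included 2 listed as targets, the receptor gene *Tnfrsf19* (log2 fold change 0.69, SE 0.0799, edgeR adjusted p = 0.00278) and *Id2*, an inhibitor of bHLH factors (0.65, SE 0.13, edgeR adjusted p = 0.0152). The others act in the cytoplasm. *Dact2*, which binds Dishevelled, had 0.262 and 0.534 CPM in ctrl and 2.35, 1.97 and 1.47 CPM in cko libraries, a low level at which all cko libraries were higher (log2 fold change 2.29, SE 0.45, edgeR adjusted p = 0.0160). *Cby1*, which binds β-catenin and opposes its activity, and the kinase gene *Csnk1e* were higher by 0.39 and 0.36 (edgeR adjusted p = 0.0192 and 0.0364).

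Of the 6 lower genes, *Daam2*, a formin that binds Dishevelled, changed most. It had 169 and 82.4 CPM in ctrl and 39.4, 23.9 and 31.4 CPM in cko libraries. Both ctrl libraries were well above the cko libraries, though they differed 2.05-fold from each other (log2 fold change -2.00, SE 0.30, edgeR adjusted p = 0.00673). *Prickle1*, a planar polarity gene, had 7.78 and 10.5 CPM in ctrl and 3.97, 3.82 and 4.64 CPM in cko libraries, without overlap (log2 fold change -1.13, SE 0.20, edgeR adjusted p = 0.0119). *Ctnnal1*, an α-catenin-like gene, *Pygo1*, a nuclear co-activator of β-catenin, and the listed targets *Cd44* and *Nrcam* were lower by log2 fold changes of -0.80, -0.39, -0.55 and -0.44 (edgeR adjusted p = 0.00647, 0.0176, 0.0328 and 0.0408). The listed targets that passed thus went in both directions. Of the agonists, *Rspo1* to *Rspo4*, the R-spondins, were not tested, with at most 8 counts in any library.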

How the data were processed

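The authors checked the reads with FastQC, filtered them with NGSQC then aligned them with HISAT2. They deposited read counts per gene, not normalized. The genome is mm10 in the study's methods and GRCm39 in the submitters' processing notes. The counting tool, the annotation and the use of strand are not given in the sources used here. GENCODE M21 (GRCm38) gave gene names, positions and exon lengths for 31836 of 32493 gene IDs.

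Genes were filtered by filterByExpr of edgeR 4.0.16 (R 4.3.3), normalized by TMM (factors 0.990 to 1.01) and tested by the quasi-likelihood test in 16710 genes, with Benjamini-Hochberg adjustment over all of them. This was run on 5 libraries, without the averaged column. The study used DESeq2, kept here as an alternative (1.42.0). Values are normalized CPM, and levels between genes are CPM per kb of annotated exon. The steps were tested on simulated data. No set test was run.

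The members and lists were chosen with earlier results of these data known. Values are given for each Wnt gene with an adjusted p under 0.05, the 2 of each role with the highest level per kb, and the core feedback genes. Of the other pathway genes, those past the threshold are named. Other genes given with values, among them *Wnt5a*, *Wnt5b*, *Wnt4*, *Wnt2b*, *Fzd6*, *Fzd7*, *Fzd10* and *Sfrp4*, were chosen after their values were seen. Alternatives were other normalizations, filters, DESeq2, the averaged column, a replicate block and leaving out each library. Promoter sequences came from RefSeq (GRCm38.p6). Seed sites of miR-151-5p were not searched.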

Additional observations from a re-analysis of the deposited data

How the results depend on the processing

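Of the 10 Wnt genes that passed, *Nkd1*, *Wnt7b*, *Tcf7l2* and *Fzd1* passed in all 15 alternative settings, *Rnf43* and *Fzd4* in 14, *Fzd2* in 13, *Fzd5* and *Ctnnb1* in 11 and *Fzd8* in 10, and none of them changed sign. Settings with the averaged column or with 1 ctrl library shrink or drop the spread between ctrl libraries, so a pass there adds little. Against 3 higher and 7 lower Wnt genes, there were 3 and 8 with DESeq2, and 1 to 2 and 3 to 5 when 1 cko library was left out. Without the filter on low counts there were 5 and 12, *Dkk3* among the lower ones (adjusted p = 5.01e-50 in edgeR). Its ctrl libraries differed 15.6-fold with the cko values between them, so p-values of that fit do not reflect the spread between libraries. At the threshold of the study, leaving out 1 cko library gave 2 higher and 1 to 2 lower genes against 2 and 2. Of the other pathway genes, 5 were higher and 6 lower, against 8 higher with DESeq2 and 14 higher without the filter. When 1 cko library was left out, 1 to 2 were higher and 2 to 5 lower. With all 6 columns, which count the ctrl libraries again through their mean, 14 were higher and 11 lower in edgeR and 17 higher in DESeq2. The share of *Wnt7b* in the ligand level per kb was 52.5% with the longest transcript as length and 44.5% with all exons.

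The replicate number as a block left 2 Wnt genes higher and 6 lower, as *Ctnnb1* (log2 fold change 0.31, edgeR adjusted p = 0.154), *Fzd5* (-0.64, 0.0723) and *Fzd8* (-0.56, 0.0820) no longer passed and *Lrp5* (-0.56, 0.0187) did. With the block, 3 other pathway genes were higher and 3 lower, and with all 6 columns and the block, 5 Wnt genes and 16 other pathway genes were higher and 11 other pathway genes lower. Only 2 numbers are shared by both genotypes. The difference between replicates 1 and 3 had a correlation across genes of 0.152 between genotypes. With so few libraries, this value cannot show whether libraries of the same number belong together. The labels give only the number, so the main fit used no block.

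The sign changed in genes that did not pass. With 1 library left out, the log2 fold change ranged from -2.92 to 1.03 for *Dkk3*, from -0.58 to 0.25 for *Fzd10*, from -1.27 to 0.11 for *Fzd9*, from -0.12 to 0.74 for *Lgr5*, from -0.31 to 0.25 for *Sfrp2*, from -0.32 to 1.90 for *Sfrp5*, from -0.62 to 0.058 for *Tcf7*, from -0.90 to 0.20 for *Wnt4*, from -0.10 to 0.26 for *Wnt5a*, from -1.33 to 0.83 for *Wnt5b* and from -0.057 to 0.70 for *Wnt9a*, each time between the fits without ctrl library 1 and without ctrl library 3. For *Sfrp1* it ranged from -0.16 without cko library 1 to 0.24 without cko library 2. For *Dkk3*, the fits against each ctrl library alone went in opposite directions. The cause was not tested. The precision rests on 2 ctrl libraries, and the 16 Wnt genes with at most 9 counts in a library were left out by the filter. The planned search for miR-151-5p seed sites and its alternatives were not run.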

Other observations

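*Sp5*, a transcription factor gene that is a direct target of β-catenin, was too low for the filter. It had 2 counts in each ctrl library and 14, 8 and 9 counts in cko libraries 1, 2 and 3. Without the filter, its log2 fold change was 2.32 (edgeR adjusted p = 0.0755), which did not pass. As described for *Dkk3*, p-values of that fit do not reflect the spread between libraries. *Apcdd1*, an inhibitor at the membrane that Wnt signalling induces, had 20.3 and 7.79 CPM in ctrl and 23, 30.5 and 26.3 CPM in cko libraries. All cko values were higher, but ctrl library 1 lay close to them (log2 fold change 0.91, SE 0.35, edgeR adjusted p = 0.119). Both genes were chosen after their values were seen. Of the 9 tested genes listed as targets, 5 had a positive and 4 a negative log2 fold change, *Myc* (-0.29) and *Ccnd1* (-0.12) among the negative ones.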
